A study of Mus musculus with 8 samples.

Results

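The genes described here are 10 components of Notch signalling: the receptor genes Notch1, Notch2 and Notch3, the ligand genes Dll1, Dll3, Jag1 and Jag2, and the target genes Hes1, Hes5 and Hey1. They were taken by symbol from 23523 features measured by RNA sequencing of whole tissue, and all 10 were found. The samples were 5 mouse glioblastomas and 3 normal mouse brains. Tumours arose after lentiviral delivery of HrasG12V, an activated form of the Ras GTPase, combined with a short hairpin RNA against p53. They were collected at clinical endpoint, and surrounding brain was trimmed from the GFP-positive tissue under a dissecting microscope. The promoter of the vector, the cell type it entered, the age and strain of the mice and the region of the normal brains were not stated in the labels. Whether libraries of a group stem from different mice is not stated either, so p-values measure the spread between these samples, which may be technical.

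Notch proteins are receptors at the cell surface that are cut when a ligand of the Delta or Jagged type on a neighbouring cell binds them. The freed intracellular part enters the nucleus, joins the DNA-binding protein Rbpj and switches on target genes, of which the Hes and Hey transcriptional repressors are the best known. In the brain the pathway is known for keeping neural progenitors undifferentiated, for the balance of neuronal and glial cells and for blood vessel growth.

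The promoters of 3 members are shown because Hes5 is a textbook target of Notch and because Jag1 and Jag2 moved in opposite directions. The RefSeq table of build GRCm38.p6 held promoters of 8 of the 10 genes, in 9 windows of 300 bases that run from 250 bases before to 50 bases after the gene start. Capitals mark the letters GTGGGAA, the core of the Rbpj motif, on either strand. The windows are chr4:154960673-154960972 on the plus strand for Hes5, chr2:137116471-137116770 on the minus strand for Jag1 and chr12:112929446-112929745 on the minus strand for Jag2, each written 5′ to 3′ in the direction of the gene.
Hes5: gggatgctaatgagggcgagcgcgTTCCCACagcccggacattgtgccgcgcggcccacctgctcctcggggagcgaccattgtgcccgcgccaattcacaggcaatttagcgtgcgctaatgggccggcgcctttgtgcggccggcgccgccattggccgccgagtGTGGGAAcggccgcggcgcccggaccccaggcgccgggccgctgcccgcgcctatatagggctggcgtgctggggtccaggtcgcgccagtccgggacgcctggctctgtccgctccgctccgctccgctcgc
Jag1: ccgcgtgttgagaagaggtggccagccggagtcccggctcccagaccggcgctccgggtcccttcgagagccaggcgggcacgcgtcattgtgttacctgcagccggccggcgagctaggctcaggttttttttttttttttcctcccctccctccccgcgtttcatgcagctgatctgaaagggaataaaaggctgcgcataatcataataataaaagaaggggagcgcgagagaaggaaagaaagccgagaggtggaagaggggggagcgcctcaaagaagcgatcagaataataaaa
Jag2: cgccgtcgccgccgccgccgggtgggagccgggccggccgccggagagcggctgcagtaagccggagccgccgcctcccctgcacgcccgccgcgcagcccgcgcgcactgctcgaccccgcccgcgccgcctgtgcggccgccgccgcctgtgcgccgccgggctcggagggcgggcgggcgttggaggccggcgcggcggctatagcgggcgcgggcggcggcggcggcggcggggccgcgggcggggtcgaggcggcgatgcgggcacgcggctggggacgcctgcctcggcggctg
The Hes5 window held 2 matches, which begin 226 and 83 bases before the gene start and lie on opposite strands. Of all 32851 windows, 6.38% held at least 1 match and 0.256% held at least 2. No other member window held these letters. Promoters of the target genes Hes1 and Hey1 were not available, so they were not searched. The G and C content was 72.7% for Hes5, 55.7% for Jag1 and 86.0% for Jag2. The N-box CACNAG, a site that Hes proteins bind, was searched on both strands too. It was found in windows of Notch1, Notch2, Notch3 and Dll1, and in 42.5% of all windows. A match of letters is a description and not evidence of binding.

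Of the 10 genes, 4 were higher in glioblastoma (Notch1, Notch2, Jag1 and Hes1), 2 were lower (Jag2 and Hes5) and 4 did not pass the test (Notch3, Dll1, Dll3 and Hey1). The test was the edgeR quasi-likelihood test with Benjamini-Hochberg adjustment over 14641 genes and a threshold of 0.05. In the whole comparison 71.0% of tested genes passed, with 37.1% of all tested genes higher in glioblastoma and 33.9% lower, so a count of 6 of 10 is no more than the background. The median log2 fold change was 1.19 for the 10 genes and 0.06 for all tested genes. Glioblastomas and brains had separate ranges of CPM for 6 of the 10 genes, against 70.6% of all tested genes. Below, CPM are fragment counts scaled to library size with TMM factors, and a log2 fold change is glioblastoma over normal brain, given with its standard error after the ± sign.

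Libraries held between 5490356 and 15564279 fragments, with tumour 4 the deepest. Trp53, the target of the hairpin, did not pass at -0.46 ± 0.35 on the log2 scale with an edgeR adjusted p of 0.262, its groups overlapping, and Hras was higher at 2.05 ± 0.19 with an edgeR adjusted p of 1.87e-05, where vector and endogenous fragments cannot be separated. Among markers of 10 genes each, 7 neuronal, 7 astrocyte and 10 myelin genes were lower in the tumours, and 10 macrophage and monocyte, 9 endothelial and 6 pericyte or smooth muscle genes were higher. Of the last list 2 genes, Myh11 and Vtn, were lower. In pieces of tissue, fewer cells of a type and less RNA per cell cannot be told apart.

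**Figure D1:**
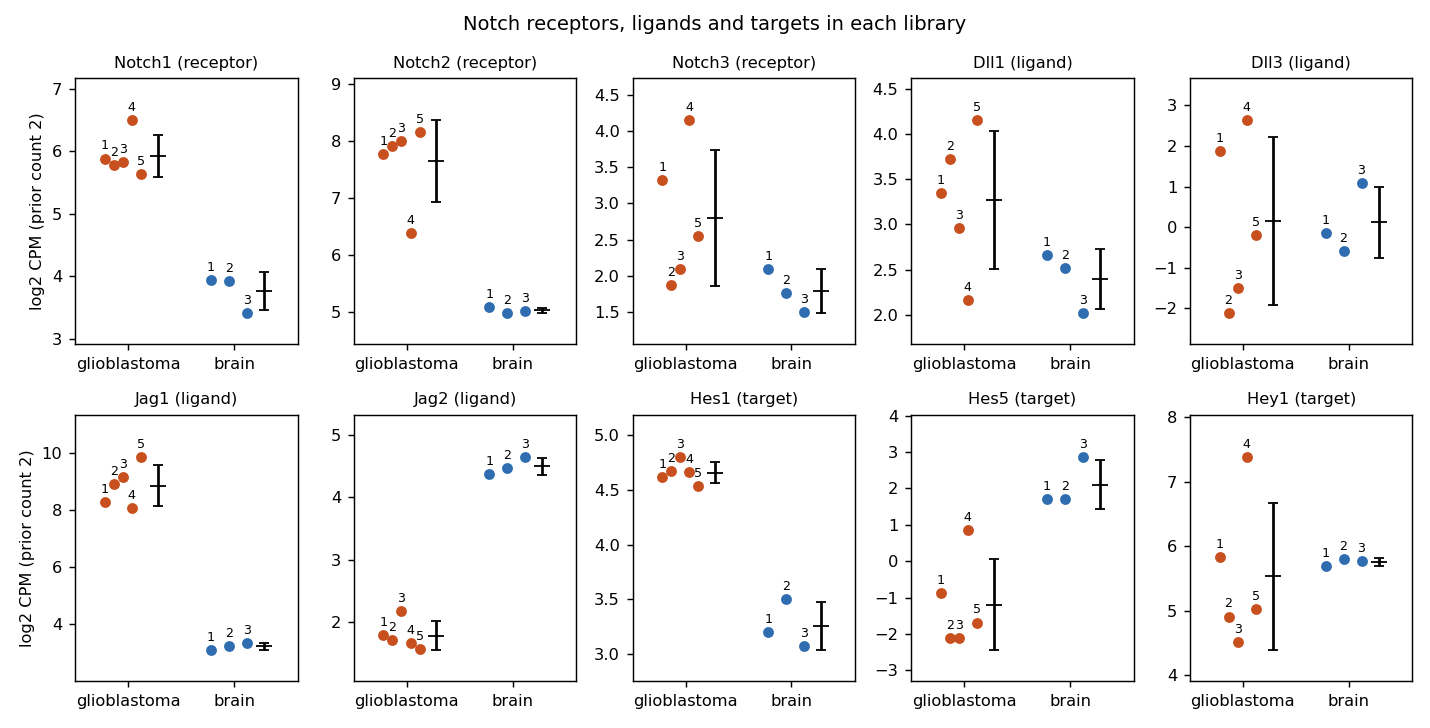
Level of each gene as log2 CPM with a prior count of 2, in the 5 glioblastomas (orange, numbered) and the 3 normal brains (blue, numbered), with the mean and SD of each group in black. Jag1 stands far above brain in all 5 tumours, Jag2 stands below, Hes1 is nearly level among tumours, and tumour 4 departs from the other tumours in Notch1, Notch2, Hes5 and Hey1.

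The receptor genes Notch1 and Notch2, both known from neural progenitors, rose. Notch1 was measured at 58.8, 54.5, 56.7, 90.3 and 49.7 CPM in tumours 1 to 5, against 15.06, 15.005 and 10.36 CPM in brains 1 to 3. The groups did not overlap, and tumour 4 stood above the other tumours. For Notch1, the edgeR adjusted p was 7.16e-05 and the log2 fold change 2.20 ± 0.25, a 4.61-fold rise. Notch2, the receptor with the highest level per length in every brain, was measured at 219, 242, 257, 83.2 and 286 CPM in tumours 1 to 5, against 33.5, 31.3 and 32.0 CPM in brains 1 to 3. Tumour 4 was the lowest of the tumours and still above every brain. For Notch2, the edgeR adjusted p was 0.000246 and the log2 fold change 2.75 ± 0.39, a 6.74-fold rise.

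Notch3, a receptor best known from pericytes and vascular smooth muscle, did not pass the test. It was measured at 9.77, 3.43, 4.03, 17.5 and 5.66 CPM in tumours 1 to 5, against 4.06, 3.17 and 2.59 CPM in brains 1 to 3. Tumours 1, 4 and 5 lay above the brains and tumours 2 and 3 lay within their range. For Notch3, the edgeR adjusted p was 0.0665 and the log2 fold change 1.32 ± 0.58, with a 95% interval from 0.01 to 2.64. Without tumour 2 it passed (edgeR adjusted p = 0.0370), as it did without tumour 3 (edgeR adjusted p = 0.0444). Without tumour 4, where Notch3 was highest, the log2 fold change was 0.82 (edgeR adjusted p = 0.0951), and the adjusted p reached 0.176 without brain 3. Notch3 passed under 3 of 17 alternatives. The 10 pericyte and smooth muscle markers summed to 212 to 938 CPM in the tumours and 162 to 184 CPM in the brains. The lowest tumour sum belonged to tumour 4 and the highest, of which Acta2 was the largest part, to tumour 3. Single markers differed in this. Acta2, Cnn1, Pdgfrb and Myh11 were lowest in tumour 4, while Kcnj8 was highest there and Rgs5 was lowest in tumour 3. None of these markers was at 0 in any library, and their part in the result was not tested.

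Within the receptors, shares were taken from the FPKM values, which are scaled for length. Notch2 made up 73.7%, 78.8%, 79.0%, 40.3% and 82.0% of the summed FPKM of the 3 receptors in tumours 1 to 5, against 60.2%, 60.0% and 68.2% in brains 1 to 3. Notch1 made up 48.5% in tumour 4 and between 15.8% and 21.9% in the other tumours, against 24.5% to 31.9% in the brains. Tumour 4 was thus the only library in which Notch1 held a larger share than Notch2. The summed receptor FPKM was 27.2, 28.7, 29.8, 18.5 and 31.4 in tumours 1 to 5, against 5.09, 4.81 and 4.33 in brains 1 to 3.

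The Jagged ligand genes moved in opposite directions. Jag1 was measured at 314, 483, 578, 267 and 942 CPM in tumours 1 to 5, against 8.29, 9.09 and 9.95 CPM in brains 1 to 3. Every tumour exceeded every brain by a wide margin, and tumour 5 was the highest. For Jag1, the edgeR adjusted p was 1.83e-05 and the log2 fold change 5.82 ± 0.52, a 56.6-fold rise and the largest change among the 10 genes. Jag2, the second Jagged ligand, was measured at 3.26, 3.07, 4.29, 2.97 and 2.75 CPM in tumours 1 to 5, against 20.5, 21.8 and 24.8 CPM in brains 1 to 3. The groups did not overlap and the tumours lay close together. For Jag2, the edgeR adjusted p was 5.63e-06 and the log2 fold change -2.78 ± 0.20, a level 6.85-fold lower in glioblastoma.

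The Delta ligand genes among the members, Dll1 and Dll3, did not pass the test. Dll1, an activating ligand known from neural progenitors, was measured at 9.93, 13.0, 7.56, 4.25 and 17.6 CPM in tumours 1 to 5, against 6.09, 5.48 and 3.82 CPM in brains 1 to 3. Tumour 4 lay within the range of the brains and the other tumours lay above it. For Dll1, the edgeR adjusted p was 0.0681 and the log2 fold change 1.03 ± 0.45, and without tumour 4 it was 1.25 (edgeR adjusted p = 0.00780). It was 0.75 without tumour 5 (edgeR adjusted p = 0.136) and 0.86 without brain 3 (edgeR adjusted p = 0.195), and Dll1 passed under 4 of 17 alternatives. Dll3, a divergent Delta-like protein that is known mainly as an inhibitor of Notch signalling within the cell, was measured at 3.41, 0, 0.126, 5.998 and 0.646 CPM in tumours 1 to 5, against 0.677, 0.433 and 1.91 CPM in brains 1 to 3. Tumours 1 and 4 were above the brains and tumours 2 and 3 were below them. The 0 in tumour 2 allows a level of up to 0.541 CPM, counting error only. For Dll3, the edgeR adjusted p was 0.468 and the log2 fold change 1.05 ± 1.25, with a 95% interval from -1.78 to 3.89, and without brain 3 it was 1.92 (edgeR adjusted p = 0.342). Dll3 rested on 134 fragments in the tumours and 21 in the brains.

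The shares of Jag1, Jag2 and Dll1 among the ligands did not overlap between tumours and brains. Jag1 made up 91.3%, 94.98%, 96.9%, 90.7% and 96.5% of the summed FPKM of the 4 ligands in tumours 1 to 5, against 17.2%, 18.5% and 18.0% in brains 1 to 3. Jag2 made up between 0.386% and 1.39% in the tumours, against 58.3%, 60.9% and 61.5% in brains 1 to 3. Dll1 made up between 2.08% and 4.73% in the tumours and between 11.3% and 20.7% in the brains. A share depends on the other ligands in the sum, and the FPKM of Dll1 itself was 1.22 to 5.06 in the tumours and 1.12 to 1.78 in the brains. The summed ligand FPKM ran from 51.4 to 171 in the tumours and from 8.59 to 9.95 in the brains. These shares describe RNA in the whole sample and not which cells carry it.

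**Figure D2:**
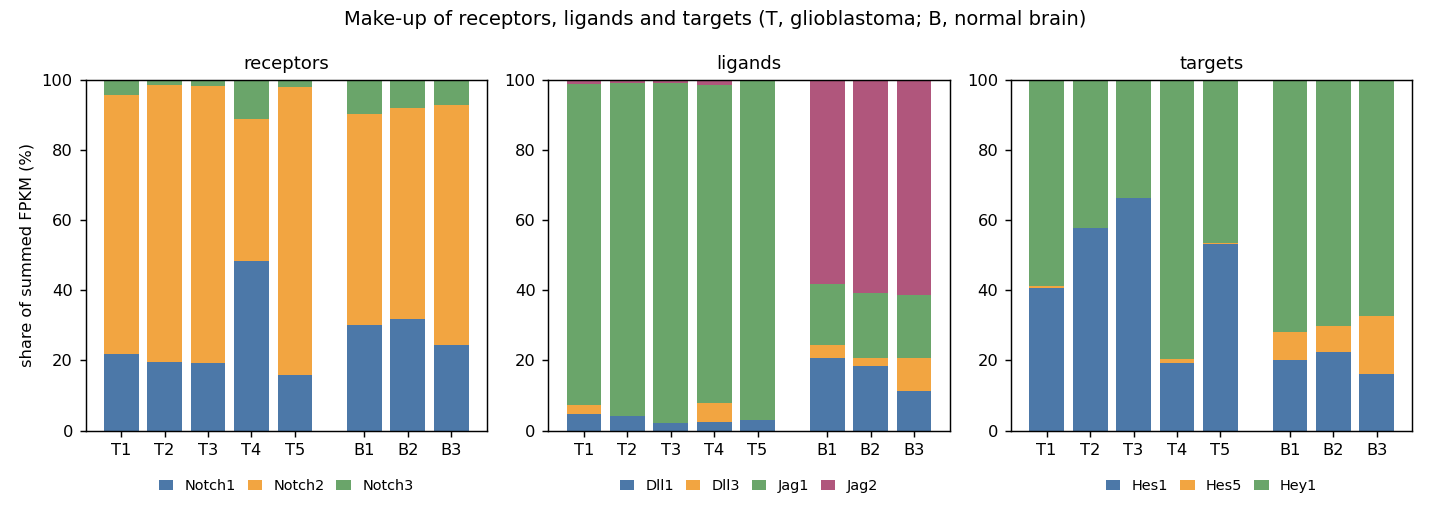
Share of each gene in the summed FPKM of the receptors, the ligands and the targets (percent), for glioblastomas T1 to T5 on the left and normal brains B1 to B3 on the right of each panel. Jag1 fills over 90% of the ligand bar in every tumour and Jag2 58.3% to 61.5% in the brains, and tumour 4 differs from the other tumours in receptors and targets.

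Of the target genes, Hes1 rose, Hes5 fell and Hey1 did not pass the test. Hes1, a repressor that keeps progenitors from differentiating, was measured at 24.4, 25.3, 27.7, 25.1 and 22.9 CPM in tumours 1 to 5, against 8.97, 11.1 and 8.18 CPM in brains 1 to 3. The groups did not overlap and the tumours were nearly level. For Hes1, the edgeR adjusted p was 8.64e-05 and the log2 fold change 1.41 ± 0.17, a 2.66-fold rise. Hes5, a repressor whose expression in neural progenitors depends closely on Notch, was measured at 0.310, 0, 0, 1.57 and 0.0808 CPM in tumours 1 to 5, against 3.04, 3.03 and 7.09 CPM in brains 1 to 3. Every tumour lay below every brain, with tumour 4 the highest tumour and brain 3 the highest brain. The zeros in tumours 2 and 3 allow levels of up to 0.541 and 0.378 CPM, counting error only.

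For Hes5, the edgeR adjusted p was 0.0161 and the log2 fold change -3.15 ± 0.96. It was -5.32 without tumour 4 (edgeR adjusted p = 0.000168) and -2.65 without brain 3 (edgeR adjusted p = 0.0753), so that the call was lost without that brain. Hes5 rested on 30 fragments in the tumours, 27 of them in tumour 4, and 91 in the brains. It passed the filter on low counts through the brains, since 3 brains and 1 tumour reached the filter level of 1.32 CPM. The 10 astrocyte markers summed to 776 to 2084 CPM in the tumours, highest in tumour 4, and to 5852 to 6264 CPM in the brains. Slc1a2 was the largest part of the sum in every brain. Gja1 and Gjb6 were lowest in tumour 4 and Aqp4 was highest in tumour 2, while the other astrocyte markers were highest in tumour 4. Aldh1l1, Gja1 and S100b did not pass the test. None of the astrocyte markers was at 0 in any library, and their part in the fall of Hes5 was not tested.

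Hey1, a Hes-related repressor, did not pass the test. It was measured at 56.6, 29.8, 22.6, 167 and 32.2 CPM in tumours 1 to 5, against 51.4, 55.5 and 54.3 CPM in brains 1 to 3. Tumours 2, 3 and 5 lay below every brain, while tumour 1 was close to the brains and tumour 4 stood far above them. For Hey1, the edgeR adjusted p was 0.783 and the log2 fold change 0.20 ± 0.63, and without tumour 4 its sign turned, at -0.60 (edgeR adjusted p = 0.0768). By FPKM, Hey1 was the leading target in tumours 1 and 4, with 58.8% and 79.5% of the summed target FPKM, and in every brain, with 67.3% to 71.9%. Hes1 led in tumours 2, 3 and 5, with 57.6%, 66.3% and 53.2%. Hes5 held at most 1.40% in the tumours and between 7.17% and 16.4% in the brains.

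**Figure D3:**
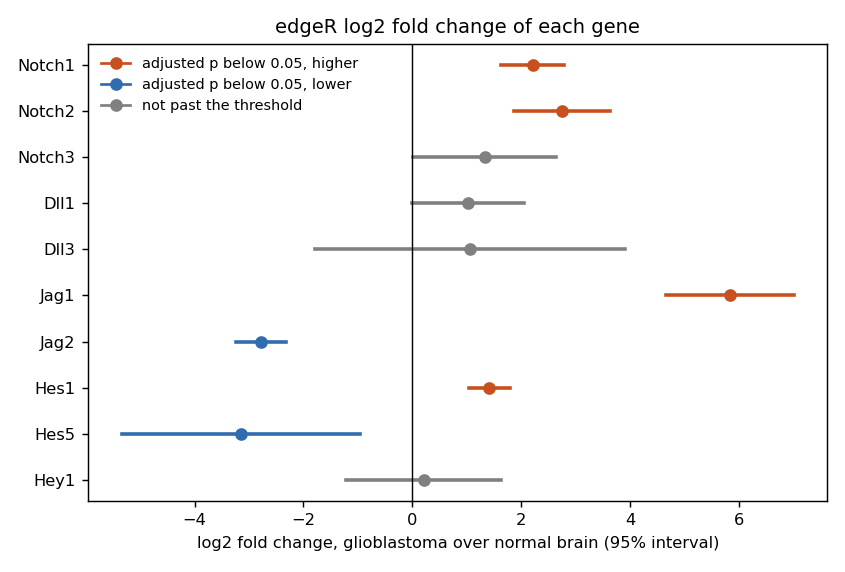
log2 fold change of glioblastoma over normal brain for each gene (points) with its 95% interval (lines) from the edgeR fit over all 8 libraries. Notch1, Notch2, Jag1 and Hes1 are higher, Jag2 and Hes5 are lower, and the intervals of Dll3 and Hey1 are wide around 0.

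The tumours differed from each other most in Dll3, Hes5, Hey1 and Notch3, and least in Hes1. The SD of log2 CPM among the 5 tumours was 2.07 for Dll3, 1.25 for Hes5, 1.14 for Hey1 and 0.94 for Notch3, against 0.88, 0.67, 0.06 and 0.30 among the 3 brains. These tumour values stood between percentile 88.98 (Notch3) and percentile 99.1 (Dll3) of all tested genes, whose median was 0.379 in tumours and 0.154 in brains. In the tumours Dll3 rested on 134 fragments, Hes5 on 30 and Hey1 on 3975. The SD of Hes1 among tumours was 0.10, at percentile 2.37 of all tested genes, and its highest tumour stood at 1.21 times the lowest. Hey1 spanned a range of 7.40 times, Notch3 of 5.11, Dll1 of 4.14, Jag1 of 3.53 and Notch2 of 3.44, while Notch1 spanned 1.82 and Jag2 1.56 times.

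Tumour 4 was often at an extreme. It was the highest tumour for 5 genes (Notch1, Notch3, Dll3, Hes5 and Hey1) and the lowest for 3 others (Notch2, Dll1 and Jag1), and for these 3 the highest was tumour 5. Tumour 1 was the second highest for the same 5 genes that were highest in tumour 4, though not clearly so for Hes5 and Notch1. Hes5 in tumour 1 rested on 2 fragments (0.310 CPM), and the zeros in tumours 2 and 3 allow up to 0.541 and 0.378 CPM. Notch1 was 58.8 CPM in tumour 1 and 56.7 CPM in tumour 3. The 10 oligodendrocyte precursor markers, among them Pdgfra, Olig1 and Sox10, summed to 1212, 156, 267, 2330 and 409 CPM in tumours 1 to 5, against 328, 312 and 344 CPM in brains 1 to 3. Of these markers 1 was higher (Pdgfra), 2 were lower (Gpr17 and Neu4) and 7 did not pass the test. Pdgfra was the largest part of the sum in every tumour, at 790, 133, 241, 1338 and 359 CPM in tumours 1 to 5. It was at 94.9, 116 and 124 CPM in brains 1 to 3. The mean log2 CPM of the 10 markers was 4.27 to 4.43 in the brains and 5.15 and 5.84 in tumours 1 and 4. In tumours 2, 3 and 5 it was 1.51, 1.78 and 2.44, below every brain. The macrophage and monocyte markers summed to 1383, 2902, 3172, 1238 and 2748 CPM in tumours 1 to 5, against 151, 164 and 173 CPM in brains 1 to 3, and none was at 0. Both sums set tumours 1 and 4 apart from tumours 2, 3 and 5. Their part in the levels of the Notch genes was not tested. With all libraries thinned to 5490356 fragments, the same 6 genes passed, in the same directions.

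**Figure D4:**
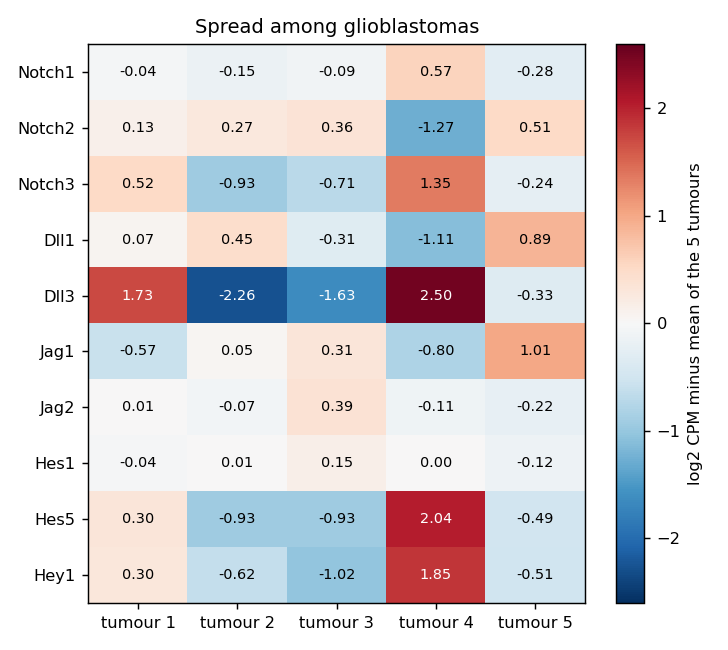
log2 CPM of each gene in each glioblastoma minus the mean of the 5 glioblastomas (colour and printed value). Tumour 4 is high for Dll3, Hes5, Hey1, Notch3 and Notch1 and low for Notch2, Dll1 and Jag1, and the row of Hes1 is close to 0 throughout.

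By likeness of profile, taken as the root mean square difference in log2 CPM centred on the brain mean over 8 libraries, the genes nearest to Dll3 were Prss35 (0.525), Rec8 (0.552) and Sardh (0.624). Rec8 encodes a meiotic cohesin subunit and Sardh the mitochondrial sarcosine dehydrogenase. The genes nearest to Jag1 were Fut4 (0.209), Ifi207 (0.220) and Kdelr3 (0.301), which encode a fucosyltransferase, a protein of an interferon-inducible family and a receptor that returns proteins to the endoplasmic reticulum. Their log2 fold changes were 6.49 ± 0.57 for Fut4, 7.35 ± 0.79 for Ifi207 and 6.04 ± 0.43 for Kdelr3. In the brains Fut4 lay at 0.169 to 0.433 CPM, Ifi207 at 0 to 0.144 CPM and Kdelr3 at 0.507 to 0.721 CPM. At such low levels the prior count of 2 narrows log2 differences, and with them the distances to Jag1 are uncertain. Dll3 had been taken for its spread and Jag1 for its change, and the likeness is a description.

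Around the members, 59 other genes of the pathway were listed by role, of which 55 had enough fragments to test. Of these 20 were higher, 20 were lower and 15 did not pass, against 37.1% higher and 33.9% lower over all tested genes, and the median log2 fold change was 0.22. The remaining receptor Notch4 and the Delta ligand Dll4, both known from endothelial cells, rose. Notch4 was measured at 22.5, 40.1, 36.9, 10.1 and 51.8 CPM in tumours 1 to 5, against 2.20, 1.44 and 2.86 CPM in brains 1 to 3, a rise of 3.88 ± 0.59 on the log2 scale with an edgeR adjusted p of 0.000392. Dll4 was measured at 4.65, 7.76, 11.97, 18.8 and 11.9 CPM in tumours 1 to 5, against 1.18, 1.59 and 1.77 CPM in brains 1 to 3, a rise of 2.85 ± 0.49 on the log2 scale with an edgeR adjusted p of 0.000784. Tumour 4 had the lowest Notch4 and the highest Dll4 of the tumours. The 10 endothelial markers summed to 405, 378, 535, 272 and 416 CPM in tumours 1 to 5, against 134, 112 and 121 CPM in brains 1 to 3, with none at 0, and their part in these rises was not tested.

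All 4 genes of ligand ubiquitination (Mib1, Mib2, Neurl1a and Neurl1b), the E3 ligases that prepare ligands for endocytosis, were lower. Over all tested genes 33.9% were lower and 37.1% were higher, and the small counts by role here stand beside that share. The 10 neuronal markers, of which 7 were lower and none was at 0, summed to 556 to 1025 CPM in the tumours and 7409 to 8628 CPM in the brains. Their part in the fall of the ubiquitination genes was not tested. Neurl1a averaged 3.57 ± 1.68 CPM in glioblastoma (SD, n = 5) and 70.3 ± 13.1 CPM in brain (SD, n = 3), a difference of -4.27 ± 0.36 on the log2 scale. Of 9 genes of receptor proteolysis 5 were higher, 1 was lower, 2 did not pass and Psenen was not tested. Adam17, a protease of the cell surface that sheds many proteins and can cut Notch, averaged 176 ± 15.7 CPM in glioblastoma (SD, n = 5) and 25.5 ± 4.25 CPM in brain (SD, n = 3), a difference of 2.79 ± 0.17 on the log2 scale. The gamma-secretase subunit gene Aph1b was lower, at -1.52 ± 0.33 (SE).

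In the nucleus, 5 of 7 genes of the activating complex were higher and none was lower, against 37.1% higher and 33.9% lower over all tested genes. The groups overlapped for Maml1, Maml3 and Kat2b (edgeR adjusted p = 0.0472, 0.0286 and 0.0462). Ep300 did not pass, at -0.52 ± 0.21 (edgeR adjusted p = 0.0531), though every tumour lay below every brain. Rbpj, the DNA-binding partner of the Notch intracellular part, was measured at 71.4, 53.2, 90.9, 34.6 and 91.2 CPM in tumours 1 to 5, against 12.7, 11.98 and 15.3 CPM in brains 1 to 3. The groups did not overlap, and the change was 2.36 ± 0.34 on the log2 scale, with an edgeR adjusted p of 0.000311. Of 11 co-repressor genes 7 were lower and 3 higher, with Spen, a scaffold that Rbpj recruits, at -1.96 ± 0.15 and the histone deacetylase gene Hdac1 at 2.24 ± 0.24 (SE). Of 10 genes of negative regulation and receptor turnover 4 were lower and 3 higher. Fbxw7, which marks the Notch intracellular part for degradation, averaged 41.3 ± 5.77 CPM in glioblastoma (SD, n = 5) and 455 ± 47.4 CPM in brain (SD, n = 3), a difference of -3.46 ± 0.15 on the log2 scale, while the Deltex family gene Dtx2 was at 2.70 ± 0.51 (SE).

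Of 5 glycosylation genes, which modify the receptor and its response to ligands, 2 were higher and 1 lower. Among the Fringe genes the calls went in opposite directions, with Mfng at 1.16 ± 0.28 and Rfng at -2.10 ± 0.30 (SE). Among other ligands, Dlk2 was at -3.63 ± 0.55 (SE), and its fragment sum was not a whole number, within 0.01, in 4 libraries. Dlk2 rested on 46 fragments in the tumours and 227 in the brains. It passed the filter on low counts through the brains, since only tumour 5, at 1.94 CPM, lay above the filter level of 1.32 CPM. The other tumours lay at 0.180 to 1.09 CPM, near the floor. Of the 6 other Hes and Hey genes 3 had enough fragments to test (Hes6, Hey2 and Heyl), and none passed the edgeR threshold or had an unadjusted p below 0.05. With upper quartile scaling 23 pathway genes were higher and 18 lower.

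**Figure D5:**
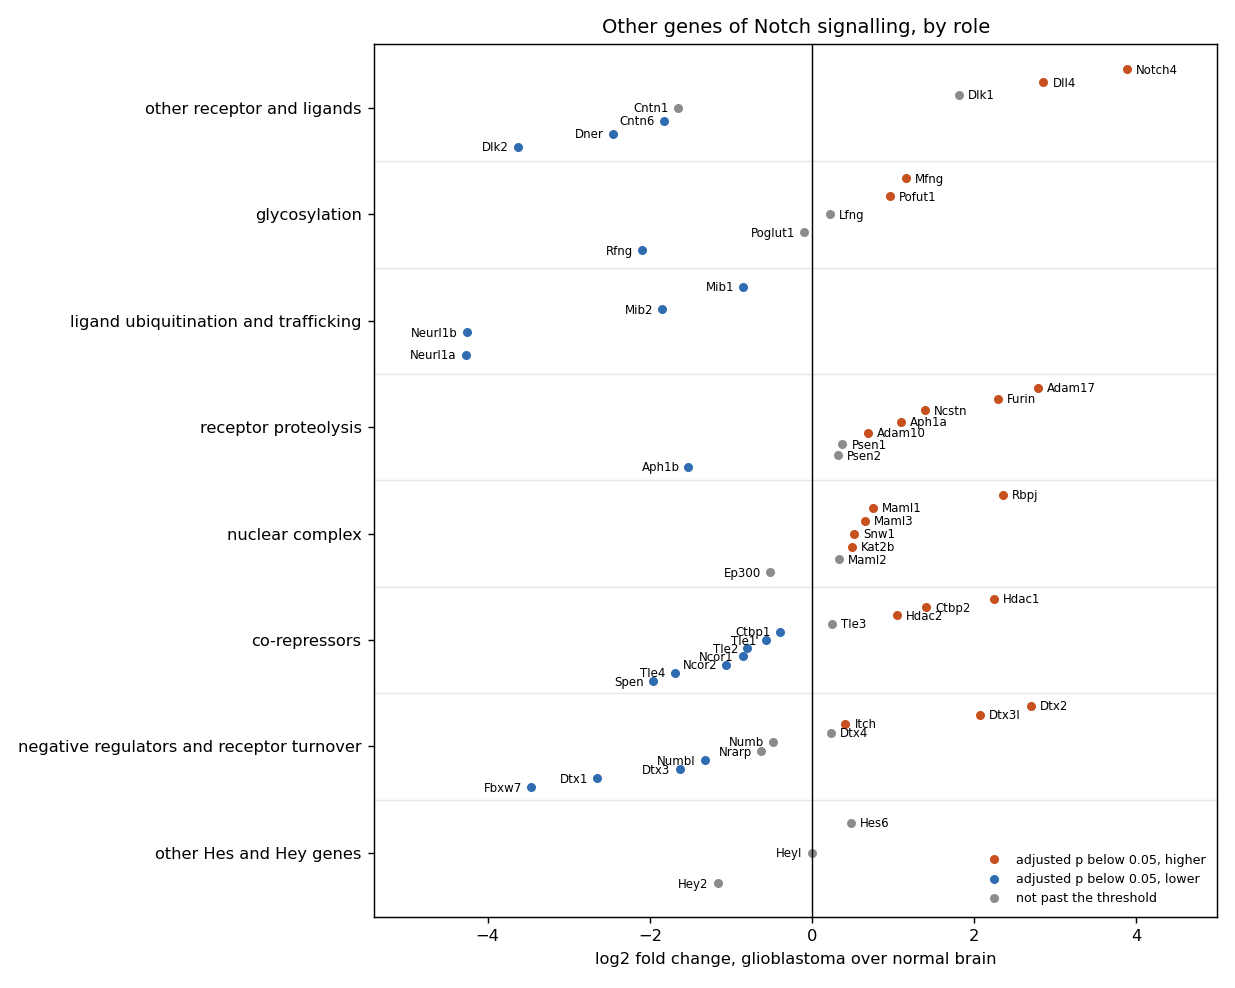
log2 fold change of glioblastoma over normal brain for the 55 tested pathway genes, arranged by role, with genes past the adjusted threshold in orange (higher) and blue (lower) and the others in grey. Genes of ligand ubiquitination lie to the left of 0, and those of the nuclear complex that passed lie to the right.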

How the data were processed

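The members and gene lists were chosen with earlier results of these data known. RNA from 5 mouse glioblastomas and 3 normal mouse brains was purified on columns with DNase and made into TruSeq libraries, per the labels' protocols. The submitters' processing notes name STAR 2.3.0e, Cuffdiff 2.1.1 and build mm9, without roles or settings. The authors deposited estimated counts of fragments per RefSeq accession and FPKM values scaled per library, per the file headers. Strand handling, filters and the annotation release are not stated there. Another 2 scaled columns were not used.

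Symbols came from RefSeq (GRCm38.p6) for 30474 of 30967 accessions and GENCODE for 178. Estimated counts were summed per gene and rounded. Each member had 1 accession, with whole-number counts within 0.01. Counts of near-identical gene copies and overlapping genes are uncertain. edgeR 4.0.16 (R 4.3.3) was run with TMM factors, its default filter, which all 10 members passed, and the robust quasi-likelihood test, with Benjamini-Hochberg adjustment over 14641 genes. Standard errors came from the F statistic, and 95% intervals from the moderated degrees of freedom. For log2 CPM the prior count was 2. A count of 0 was given an upper limit of 3 fragments, 0.175 to 0.541 CPM per library, and limits cover counting error only.

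When tested on simulated data (glioblastoma against normal brain, 14367 genes), 86.9% of 4-fold and 18.4% of 2-fold changes were recovered, with 3.70% false calls. Only 200 genes were changed in the simulation, while 71.0% of tested genes passed in the data. Simulated spread followed the trend for genes of like level and not each gene's own spread among tumours. For both reasons recovery and false calls in the data can differ, also for members that vary widely among tumours. Alternatives were DESeq2 1.42.0, other scaling factors and filters, limma 3.58.1 on log2(FPKM + 1) and log2(FPKM + 0.1), thinning, and each of the 8 libraries left out. Named pathway genes were, per role, the called gene with the largest change in each direction, plus Notch4 and Dll4, and the 3 nearest profiles of the members with the largest spread and change. All pairs of libraries within a group differed by more than sampling noise, the closest having a chi-square of 5.17 per degree. Values of some single marker genes are not reported here.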

Additional observations from a re-analysis of the deposited data

Results flagged for a closer look

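On the CPM scale, tumour 4 stood apart from the other tumours in 3 of the 10 genes, all of them in the upward direction. The gap between tumour 4 and the nearest other tumour, as a share of the whole range of the 5 tumours in CPM, was 0.776 for Notch1, 0.803 for Hes5 and 0.764 for Hey1, above the critical value of 0.71 for 5 samples. Together with the named pathway genes, 23 genes were examined, and chance flags about 1 in 20 groups of normally distributed values. The ratio was not taken on log2 CPM, where high values stretch the range less and the flagged genes and directions can differ. On that scale Notch2 was 6.38 in tumour 4 and 7.78 to 8.16 in the other tumours. Notch1 was 90.3 CPM in tumour 4 and 49.7 to 58.8 CPM in the others, and Hey1 was 167 CPM in tumour 4 and 22.6 to 56.6 CPM in the others.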

How the results depend on the processing

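Over the alternatives, 153 of 165 fold changes of the 10 genes kept their direction and side of the threshold, as did all 220 of the named pathway genes. Notch1, Notch2, Jag1, Jag2 and Hes1 passed under all 17 alternatives. With DESeq2, Notch3 (1.32) and Dll1 (1.04) passed, and Dll1 also passed with upper quartile factors (1.14) and with library size only (1.15), which moved the median log2 fold change of all genes to 0.18 and 0.20, against 0.06 with TMM. With limma, Hey1 was at -0.21 (pseudocount 1) and -0.23 (pseudocount 0.1), and Dll3 at -0.019 (pseudocount 0.1). These did not pass, and the cause was not tested. With a filter of 5 CPM in 3 samples Hes5 and Dll3 were not tested, which left 1 member lower. Leaving out 1 library at a time gave 4 to 5 members higher and 1 to 2 lower, with log2 fold changes from -5.32 to -2.65 for Hes5, 0.82 to 1.51 for Notch3, 0.75 to 1.25 for Dll1, -0.60 to 0.42 for Hey1 and 0.68 to 1.92 for Dll3. Dll3 was not tested without tumour 1, without tumour 4 or after thinning. Dll3 and Hes5 rested on the fewest fragments of the 10 genes, 134 and 30 in the tumours. No paired analysis was possible because the labels give no replicate numbers and nothing ties the library numbers of the deposited table into pairs.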

Other observations

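Some pathway genes that no rule named, chosen here after their values were seen, also had their highest tumour value in tumour 4. Of the 55 tested pathway genes, 17 were highest and 20 lowest in tumour 4 among the 5 tumours, and 16 were highest and 8 lowest in tumour 5. Nrarp, a direct target that feeds back on Notch, was measured at 6.20, 7.76, 6.18, 16.9 and 5.90 CPM in tumours 1 to 5, against 11.7, 13.6 and 14.996 CPM in brains 1 to 3. The Fringe gene Lfng was measured at 15.2, 14.8, 15.6, 28.7 and 16.4 CPM in tumours 1 to 5, against 16.2, 16.0 and 14.6 CPM in brains 1 to 3. The Delta-like gene Dlk1 was measured at 8.84, 0.541, 0.756, 21.0 and 3.72 CPM in tumours 1 to 5, against 0.169, 0.866 and 4.91 CPM in brains 1 to 3. None of the 3 passed the edgeR test of glioblastoma against normal brain (adjusted p = 0.164, 0.451 and 0.234).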
